A study of Mus musculus with 13 samples.

Results

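The subject is 10 mouse genes: the 4 Id genes (Id1, Id2, Id3 and Id4), the BMP ligand genes Bmp2, Bmp4, Bmp6 and Bmp7, and the oocyte ligand genes Gdf9 and Bmp15. A peak was assigned to one of them when the deposited annotation named that gene as nearest and put the peak within 100 kb of its start. By this rule 9 of the 10 genes held 135 of the 538751 peaks in 12 lists, and 475101 of all peaks lay within that distance of some start. Bmp4 was the exception, with no peak in any list. The members held 6 SMAD2/3 peaks, 76 FOXL2 peaks and 53 H3K27ac peaks. The 4 Id genes held 0, 32 and 37 of these, and the ligand genes held 6, 44 and 16.

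The peaks came from chromatin immunoprecipitation and sequencing (ChIP-seq) in LβT2 cells, a mouse pituitary tumour line that resembles gonadotropes. Cells of every group had been transduced with a lentiviral cassette that expressed GFP constitutively and FLAG-tagged mouse FOXL2, a forkhead transcription factor, under doxycycline, and the FLAG antibody was used to find FOXL2. After 24 h of recovery, all cells received doxycycline for 48 h and were moved to 2% serum for 2 h. For the last 1 h they were given activin A at 1 nM or its vehicle, and were then fixed in formaldehyde at 1%. No group without doxycycline or without the transgene was analysed here, so FOXL2 peaks are those of the induced, tagged protein. SMAD2/3, FOXL2 and H3K27ac (histone H3 acetylated at lysine 27, found at active promoters and enhancers) were each measured in 2 vehicle and 2 activin libraries, every sample being a pool of 3 plates. The labels do not say that duplicates came from separate cultures on different days, so p-values measure the spread between these libraries only.

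Bone morphogenetic proteins (BMPs) are secreted dimers of the TGF-beta family that bind serine/threonine kinase receptors and activate SMAD1, SMAD5 and SMAD9. Activin uses related receptors that activate SMAD2 and SMAD3, and both branches share a common partner SMAD. Id genes are classic immediate targets of the BMP branch. Id proteins carry a helix-loop-helix dimerization domain without a DNA-binding region and hold E proteins away from DNA. GDF9 and BMP15 are ligands best known from the oocyte, and BMP6 and BMP7 have been studied as regulators of FSH production in gonadotropes.

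The peak lists do not hold the read depth, and their lengths are given instead. The SMAD2/3 lists held 605 and 144 peaks under vehicle and 7784 and 5970 under activin, the FOXL2 lists 83834 to 97701 and the H3K27ac lists 38995 to 41763. Of 7 gonadotrope marker genes, 6 had an acetylated region shared by all 4 H3K27ac libraries within 100 kb, and 4 had their start acetylated in all 4. Fshb had neither. Over the 15377 protein-coding genes named within 100 kb of a peak, 61.2% had such a region, and no share is given for starts. Of 7 markers of other pituitary lineages, 5 of them named in the lists, 1 had such a region and 0 had the start acetylated. Pecam1, an endothelial gene and the 1 named among 3 markers of other cell types, had 5 such regions without an acetylated start.

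To show what the starts of these genes look like, the 250 bases upstream of the RefSeq start are printed for the 3 Id genes with an entry, and for Bmp4, the member with no peak. The sequences are those of RefSeq on GRCm38.p6, read 5′ to 3′ on the strand of the gene. Capitals mark CAGAC or its reverse complement GTCTG, a short SMAD-binding word, and GGCGCC, a GC-rich SMAD site. Id1, Bmp2, Bmp7 and Gdf9 had no entry, and Bmp6 and Bmp15 had one that is described without being printed. The windows are chr12:25096093-25096342 on the minus strand for Id2, chr4:136143572-136143821 on the plus strand for Id3, chr13:48260866-48261115 on the plus strand for Id4 and chr14:46390670-46390919 on the minus strand for Bmp4.
Id2: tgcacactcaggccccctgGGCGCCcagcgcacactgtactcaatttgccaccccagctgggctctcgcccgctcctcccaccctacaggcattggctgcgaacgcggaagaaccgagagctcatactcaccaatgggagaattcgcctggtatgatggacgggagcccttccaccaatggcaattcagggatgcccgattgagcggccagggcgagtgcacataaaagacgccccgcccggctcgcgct
Id3: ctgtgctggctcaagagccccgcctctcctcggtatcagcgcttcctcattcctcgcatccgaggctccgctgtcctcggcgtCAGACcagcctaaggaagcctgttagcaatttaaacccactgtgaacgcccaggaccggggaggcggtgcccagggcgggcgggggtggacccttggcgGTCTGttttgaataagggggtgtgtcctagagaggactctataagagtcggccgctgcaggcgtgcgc
Id4: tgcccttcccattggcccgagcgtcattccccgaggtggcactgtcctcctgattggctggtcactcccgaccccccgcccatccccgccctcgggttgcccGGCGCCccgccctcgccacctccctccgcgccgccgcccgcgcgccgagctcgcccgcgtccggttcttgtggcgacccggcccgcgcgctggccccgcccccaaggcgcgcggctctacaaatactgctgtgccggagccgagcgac
Bmp4: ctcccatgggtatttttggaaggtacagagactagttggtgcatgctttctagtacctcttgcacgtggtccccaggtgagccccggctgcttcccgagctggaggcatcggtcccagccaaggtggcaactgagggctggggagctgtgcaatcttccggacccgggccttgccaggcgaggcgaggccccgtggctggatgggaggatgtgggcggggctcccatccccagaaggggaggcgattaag
The Id2 and Id4 windows each held 1 GGCGCC, at position 20 and position 103 counted from 1 at the 5′ end. Id3 held 2 CAGAC matches, 1 in each orientation, and Bmp6 held 1. Among 32851 RefSeq promoter windows of the same length, searched on both strands, CAGAC occurred in 42.2% and GGCGCC in 9.59%. Neither the forkhead word GTAAACA nor the spaced BMP response element (GGCGCC and GTCT 5 bases apart, so that it overlaps any GGCGCC match) was found in the 6 member windows, and they occurred in 3.17% and 0.07% of all windows. Id4 had 35 CpG dinucleotides and 75.6% GC, Id2 and Id3 had 18 and 62.8% each, Bmp6 had 22 and 68.8%, Bmp4 had 11 and 63.2%, and Bmp15 had 2 and 40.4%. The median over all windows was 6 CpG and 52.4% GC, so Bmp15 was the 1 member of the 6 below both medians. The Id3 window was covered by an H3K27ac peak in all 4 libraries. The Id2 window lay within a merged H3K27ac region of all 4 libraries but between the peaks of vehicle replicate 2, while the Id4, Bmp4, Bmp6 and Bmp15 windows overlapped no region. The match is of letters only and does not show that a factor was bound.

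The comparison of vehicle with activin asked how the occupancy of these genes looked 1 h after the ligand. By the naming rule, SMAD2/3 was found at 1 of the 10 genes, Gdf9. In the order vehicle 1, vehicle 2, activin 1 and activin 2, the members held 1, 0, 3 and 2 SMAD2/3 peaks, all named for Gdf9. Both activin libraries were above both vehicle libraries (0.5 ± 0.707 against 2.5 ± 0.707, SD, n = 2 each), and the exact two-sided permutation test gave p = 0.33, the smallest value that 6 labellings of 4 libraries allow. The members held 13, 19, 22 and 22 FOXL2 peaks, again without overlap between treatments (16.0 ± 4.24 against 22.0 ± 0, exact permutation p = 0.33). They held 15, 12, 13 and 13 H3K27ac peaks, and here the vehicle libraries lay on either side of the activin libraries (13.5 ± 2.12 against 13.0 ± 0, exact permutation p = 1). With 2 libraries a group this test cannot reach 0.05. The activin lists of SMAD2/3 and FOXL2 were also longer over the whole genome. In the same order, 518, 125, 6796 and 5217 SMAD2/3 peaks lay within 100 kb of any start. The members' share of SMAD2/3 peaks was therefore highest in vehicle replicate 1, and the shares of the treatments overlapped. For FOXL2 the totals were 74131, 73099, 83334 and 80983, and the members' share in vehicle replicate 2 lay close to those of both activin libraries. With the lists of each target shortened to the length of its shortest by −log10 q, the activin mean exceeded the vehicle mean by 0.5 SMAD2/3 peaks and by 3.0 FOXL2 peaks, against 2.0 and 6.0 with the full lists, and the exact permutation p was 1 for both. The activin-only regions were then 0 for SMAD2/3 and 1 for FOXL2.

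**Figure D1:**
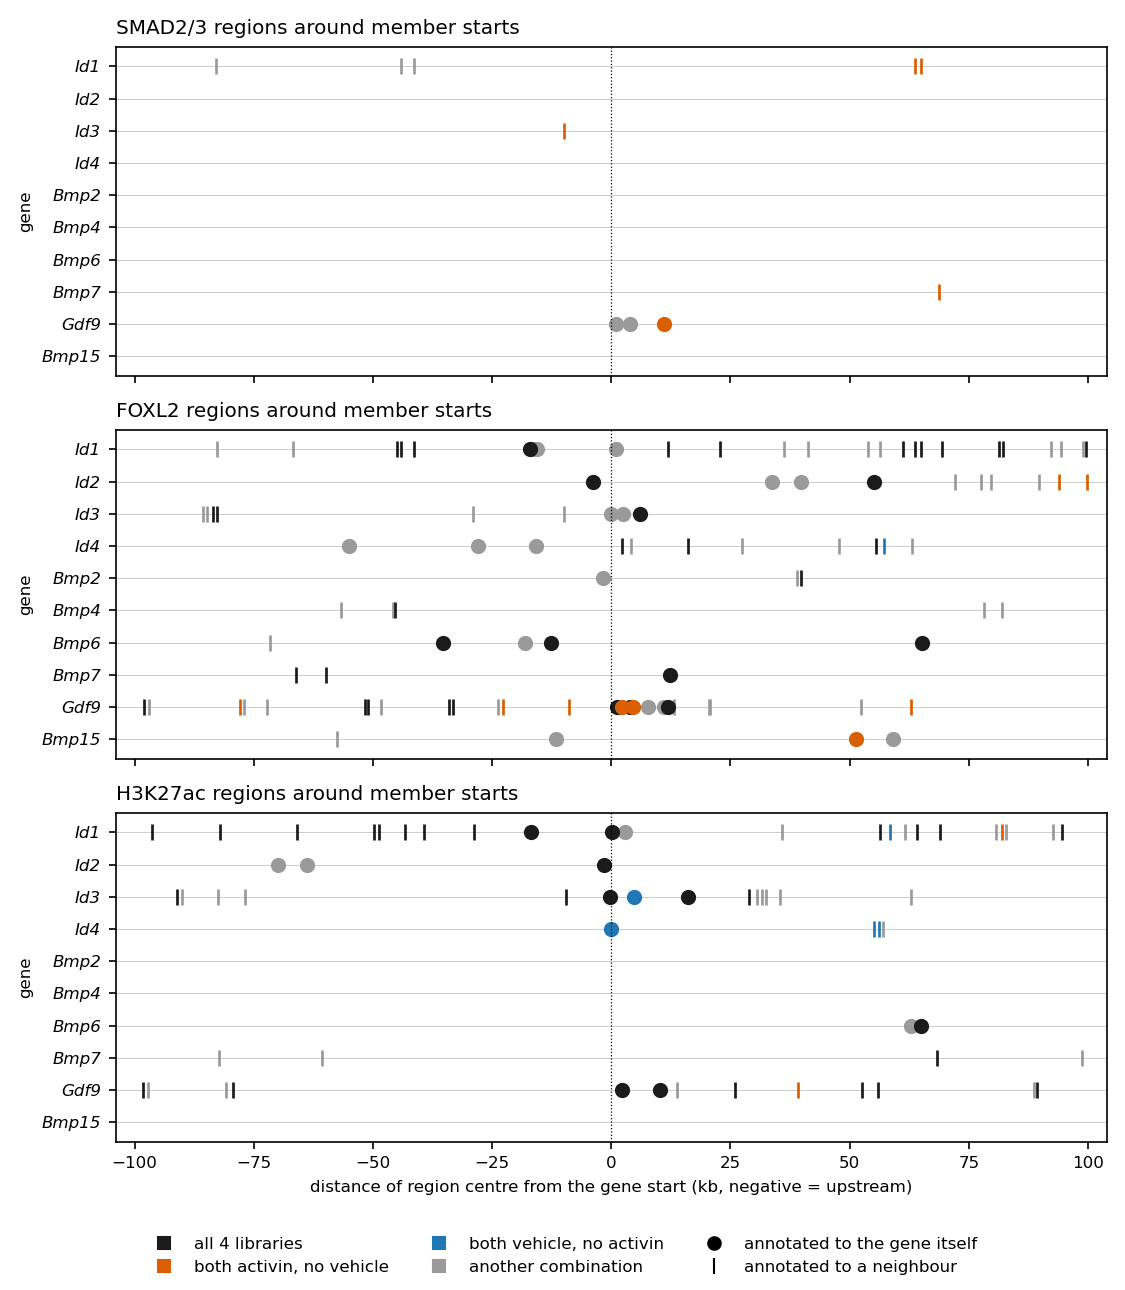
SMAD2/3, FOXL2 and H3K27ac regions whose centre lay within 100 kb of each gene's start, by distance in kb along the strand of the gene (negative is upstream). Circles are regions annotated to the gene itself and ticks are those annotated to a neighbour, coloured by the libraries with a peak. The SMAD2/3 circles are all in the Gdf9 row, and Bmp2, Bmp4 and Bmp15 have no H3K27ac region in the window.

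Overlapping peaks (1 bp or more) of a target's 4 libraries were joined into regions. The SMAD2/3 peaks of the members formed 3 regions, of which 1 was activin-only (with a peak in both activin libraries and in neither vehicle library), 0 were vehicle-only and 0 were shared by all 4 libraries. Over the 7521 SMAD2/3 regions within 100 kb of any start the shares were 54.1% activin-only, 0.0266% vehicle-only and 1.54% in all 4. The FOXL2 peaks formed 30 regions over 9 members, 11 of them in all 4 libraries, 3 activin-only and 0 vehicle-only. The shares among 107234 regions were 47.1% in all 4, 8.72% activin-only and 3.25% vehicle-only, so that the members' 11 of 30 and 3 of 30 lay near the background. The H3K27ac peaks formed 14 regions over 6 members, 8 in all 4 libraries, 0 activin-only and 2 vehicle-only. Over 48805 regions 47.1% were in all 4, 5.82% activin-only and 6.31% vehicle-only. Leaving out 1 library moved several of these small counts, but the calls are easier to meet with 1 library left in a group. Shares over all regions under the omissions are not given. Without vehicle replicate 1 the activin-only SMAD2/3 regions were 2, the vehicle-only FOXL2 regions 5 and the activin-only H3K27ac regions 1. Without vehicle replicate 2 the activin-only FOXL2 regions were 5. Without activin replicate 1 the activin-only FOXL2 regions were 6, and without activin replicate 2 the activin-only regions were 2 for SMAD2/3, 7 for FOXL2 and 2 for H3K27ac.

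Counted by gene, with Bmp4 included though no peak was named for it, 1 of the 10 members had a SMAD2/3 region present in both activin libraries. The share was 11.2% of 15377 protein-coding genes named within 100 kb of a peak. Gdf9 had 2 such regions, and 2 or more were held by 2.71% of those genes. A FOXL2 region of all 4 libraries was present at 6 of 10 members and at 55.6% of genes, and an H3K27ac region of all 4 libraries at 5 of 10 and at 61.2%. The median number of regions per member was 0 for SMAD2/3, 1 for FOXL2 and 0.5 for H3K27ac, and over all those genes it was 0, 1 and 1. The counts of the list lay near the shares of genes at large.

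Id1 (ENSMUSG00000042745, chromosome 2, plus strand, start at 152736251) carried 2 acetylated regions of all 4 libraries, which behaved differently. A weaker region 2.95 kb downstream had folds of 2.67 and 2.48 under vehicle and 2.84 in activin replicate 2. It had no peak in activin replicate 1. The region over its start, at 152734422 to 152738562, had fold enrichments of 5.88 and 5.60 under vehicle and 5.86 and 5.65 under activin. Fold enrichment is the authors' ratio for a peak and describes it within its own list, and differences of folds between lists were not tested. To set libraries side by side, regions present in all 4 libraries were ranked in each by −log10 q, with 100 for the strongest. In those ranks the start of Id1 stood at 93.0 and 93.0 under vehicle and at 93.0 and 91.5 under activin, a separation of 0.037 points.

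The other Id1 region of all 4 libraries lay at −16.8 kb from the start, at chr2:152717910-152721036, in an interval that the annotation calls intergenic. It was singled out after its values were seen. Its rank among common H3K27ac regions was 77.2 and 81.1 under vehicle and 23.2 and 19.5 under activin. Both activin libraries were low and both vehicle libraries were high, with a gap of 54.0 points. The means were 79.2 ± 2.74 and 21.4 ± 2.64 (SD, n = 2 each), a difference of −57.8 points, and of the 22999 common H3K27ac regions within 100 kb of a start 40 (0.174%), this one included, fell by as much or more. The fold enrichment of its strongest peak was 4.76 and 4.66 under vehicle and 2.81 and 2.75 under activin. Peaks covered 2809 and 2679 bp of it under vehicle and 1517 and 476 bp under activin.

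The same upstream interval held the strongest FOXL2 region named for Id1, at 152718947 to 152719430, at −17.1 kb. Its fold was 13.8 and 13.6 under vehicle and 11.4 and 11.8 under activin, and its rank among common FOXL2 regions was 87.9, 90.7, 79.1 and 83.0. FOXL2 therefore had a peak there in all 4 libraries, with a lower rank in both activin libraries and a gap of 4.87 points. The mean rank fell by 8.24 points, and a fall as large or larger was found at 31.8% of 50526 common FOXL2 regions, and a shift of this size was thus ordinary for FOXL2 while that of acetylation was rare. No SMAD2/3 peak of any library lay in the interval. The remaining FOXL2 peaks named for Id1 were weak and present in 1 or 2 libraries, with folds of 3.27 to 4.48, and none of them passed in both libraries of a treatment. By position, 13 FOXL2 regions of all 4 libraries lay within 100 kb of the Id1 start, 1 of them named for Id1. Another, 11.9 kb downstream, was annotated to the pseudogene Gm14162, with folds of 13.8, 14.7, 11.3 and 12.2.

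**Figure D2:**
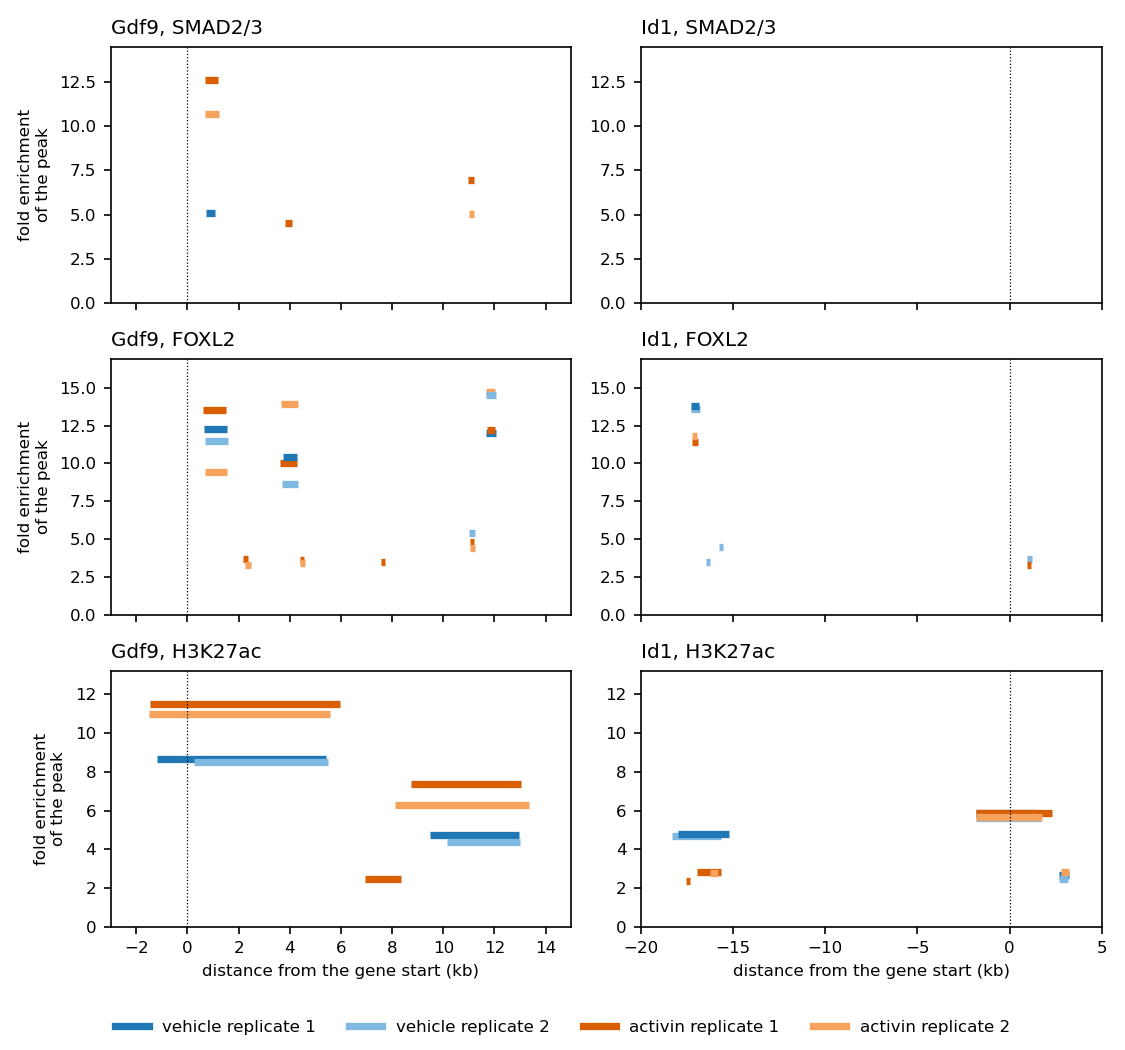
Peaks at Gdf9 (left) and Id1 (right) for SMAD2/3, FOXL2 and H3K27ac. Each bar is a peak of 1 library, drawn over its extent in kb from the start (dotted line) at the height of the authors' fold enrichment. At Gdf9 the wide activin H3K27ac bars stand above the vehicle bars over the same place, a further peak of activin replicate 1 has a fold of 2.44, and at Id1 the activin bars near −17 kb stand below them, while the bars over the Id1 start lie between 5.60 and 5.88.

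Id2 (ENSMUSG00000020644, chromosome 12, minus strand, start at 25096092) lay in a region with acetylated peaks in all 4 libraries, and the start itself was covered by a peak in 3 of them. The region ran from 25094781 to 25100552, with folds of 6.12, 6.72, 7.31 and 6.62 in the order vehicle 1, vehicle 2, activin 1 and activin 2. Its ranks were 80.2, 87.1, 90.2 and 87.5, so both activin libraries stood above both vehicle libraries, by a gap of 0.382 points that was smaller than the distance between the vehicle libraries. In vehicle replicate 2 the region was split into separate peaks, the first ending at 25096051 and the next beginning at 25096353, so that the start and the whole printed window lay in the gap. The strongest FOXL2 region of Id2 lay inside this domain, at 25099669 to 25100345, at −3.92 kb. FOXL2 folds there were 12.5, 19, 9.17 and 16.3, with the highest and the lowest value in different treatments and the replicates far apart. A further FOXL2 region of all 4 libraries lay 55.2 kb downstream within an intron of Kidins220, with folds of 7.59, 10.8, 13.6 and 9.69. No SMAD2/3 region of any annotation lay within 100 kb of the Id2 start.

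Id3 (ENSMUSG00000007872, chromosome 4, plus strand, start at 136143864) lay in the widest acetylated domain of the Id genes, from 136139206 to 136147785. By the strongest peak of each library, its folds were 6.13 and 5.90 under vehicle and 6.03 and 6.86 under activin. Its ranks were 78.8, 81.4, 78.8 and 87.1, with the treatments overlapping. In both vehicle libraries that strongest peak was not the one over the start, which had folds of 5.90 and 5.68. Within their own lists the peaks over the start ranked 84.6 and 85.5 under vehicle and 87.5 and 91.7 under activin, without overlap. These peaks are unlike in extent, at 5977 and 5715 bp under vehicle and 8568 and 3224 bp under activin. By the strongest peak of the domain, the ranks within the lists were 87.1, 88.5, 87.5 and 91.7, and the treatments overlapped. Whether the splitting of peaks accounts for the difference was not tested. Acetylation 16.1 kb downstream, at 136159186 to 136160752, was weaker and also overlapped between treatments, with ranks of 42.1, 23.3, 18.8 and 41.6. A narrow region 4.68 kb downstream, at 136148403 to 136148688, was called in both vehicle libraries with folds of 3.16 and 3.12 and in neither activin library. Its percentile ranks within those 2 lists were 17.8 and 26.1, near the weak end. FOXL2 had a region of all 4 libraries 6.10 kb downstream, at 136149777 to 136150151, with folds of 9.89, 13.4, 12.2 and 13.4. Over the printed Id3 promoter, FOXL2 had a peak in vehicle replicate 2 alone, with a fold of 3.82.

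SMAD2/3 did occur near Id3, under another name. An activin-only region at chr4:136133820-136134021, at −9.94 kb from the Id3 start, was annotated to the small nuclear RNA gene Gm26001 and so falls outside the rule. Its folds were 7.5 and 6.47 and its percentile ranks 51.4 and 38.2 within the activin SMAD2/3 lists. It lay inside an H3K27ac region of all 4 libraries, at 136133190 to 136135735, with folds of 4.4, 4.51, 5.1 and 4.79. A FOXL2 peak of activin replicate 2 alone, with a fold of 5.19, overlapped it. The SMAD2/3 region and the others described by position were singled out after their values were seen.

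Id4 (ENSMUSG00000021379, chromosome 13, plus strand, start at 48261427) differed from its 3 relatives in having no acetylated region of all 4 libraries. A narrow H3K27ac region at its start, at 48261175 to 48261441, was vehicle-only, with folds of 3.47 and 3.41 and percentile ranks of 24.6 and 29.3. Upstream, 3 FOXL2 peaks named for Id4 between −55.0 and −15.7 kb were all from activin replicate 2, with folds of 3.60 to 5.22. A FOXL2 region inside the Id4 gene, 2.29 kb downstream of the start, was annotated to the lincRNA gene A330033J07Rik and was present in all 4 libraries, with folds of 9.73, 11.9, 6.85 and 8.80. Further downstream, at 55.1 and 56.2 kb, 2 more H3K27ac regions were vehicle-only, and a vehicle-only FOXL2 region followed at 57.1 kb, all annotated to A330048O09Rik. The H3K27ac folds were 2.79 and 3.5 at the first and 3.54 and 2.84 at the second, and the FOXL2 folds were 3.62 and 7.16. All 3 vehicle-only acetylated regions around Id4 were thus of low fold.

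**Figure D3:**
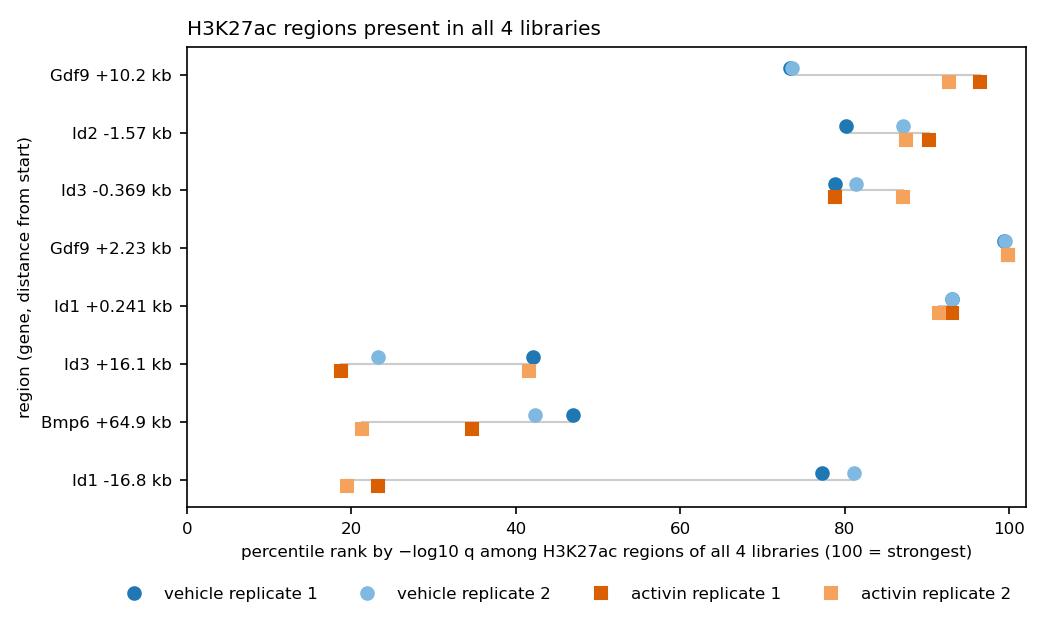
Percentile rank by −log10 q of the 8 member H3K27ac regions present in all 4 libraries, with 100 for the strongest, labelled by gene and distance of the region centre from the start. Circles are vehicle and squares activin libraries. The Id1 region at −16.8 kb has the widest gap, and the Gdf9 region at 10.2 kb is the one with both activin ranks well above the vehicle ranks.

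Of the 8 H3K27ac regions present in all 4 libraries, 3 had both activin ranks above both vehicle ranks (the 2 of Gdf9 and the start of Id2), 3 ranked lower (the 2 of Id1 and that of Bmp6) and 2, both of Id3, overlapped. Ranked by fold enrichment in place of −log10 q, 2 were higher and 2 lower, and the folds of the treatments overlapped at the starts of Id1 and Id2. Among all 22999 common regions 28.0% ranked higher and 29.7% lower by −log10 q, and no such share is given for ranks by fold. The median shift was −0.153 points over the members and −0.242 over all. Without activin replicate 1 the higher regions were 5, and without vehicle replicate 2 the lower ones were 5. Of the 11 FOXL2 regions present in all 4 libraries, 0 ranked higher, 1 ranked lower (Id1) and 10 overlapped. In the whole set of 50526 the shares were 25.8% higher and 33.1% lower, and the median shift was −1.58 points, against 0.0663 over the members. These FOXL2 counts moved with single libraries, but the rule is easier to meet with 1 library left in a group. Shares over all common regions under the omissions are not given for either target, so these counts have no background beside them. The number ranked higher was 5 without vehicle replicate 2, and 2 without activin replicate 1 or activin replicate 2. The number ranked lower was 9 without vehicle replicate 1, 3 without activin replicate 1 and 5 without activin replicate 2.

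**Figure D4:**
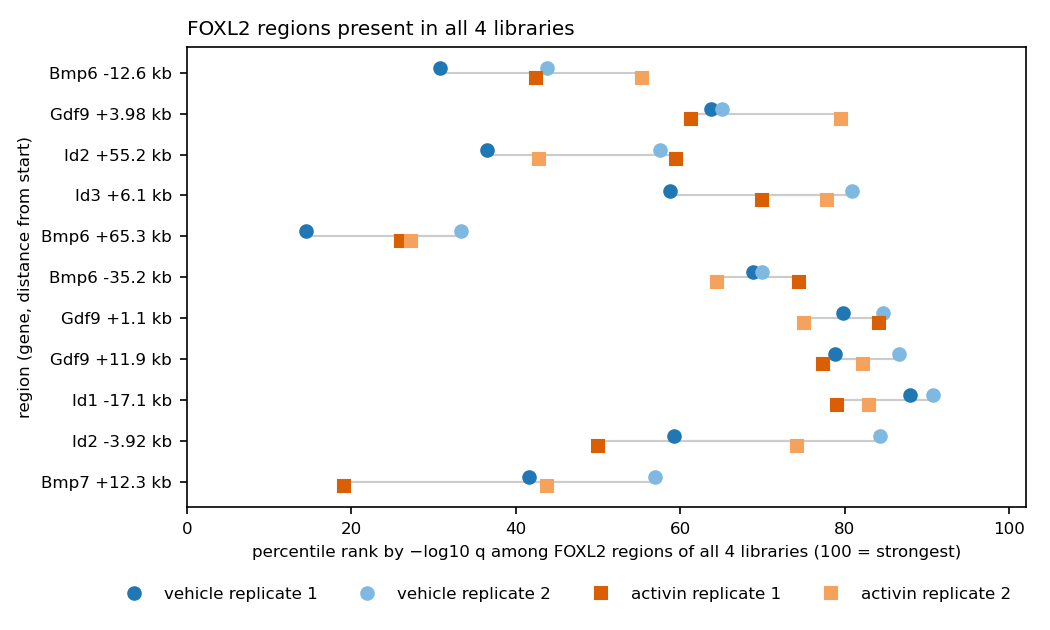
Percentile rank by −log10 q of the 11 member FOXL2 regions present in all 4 libraries, with 100 for the strongest and the same symbols for vehicle (circles) and activin (squares) libraries. In 10 of the 11 rows circles and squares overlap, and in the Id1 row both activin ranks lie below both vehicle ranks.

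Among the BMP ligands, regions of all 4 libraries were named for Bmp6 and Bmp7 and none for Bmp2 or Bmp4. Bmp6 (ENSMUSG00000039004, chromosome 13, plus strand, start at 38345716) had 3 FOXL2 regions in all 4 libraries and no SMAD2/3 peak. Its strongest FOXL2 region lay at −35.2 kb from the start, at 38310134 to 38310899, with folds of 17.5 and 14.9 under vehicle and 20.7 and 15.6 under activin. A second lay at −12.6 kb with folds of 8.66, 9.30, 10.3 and 12.5, and the last lay 65.3 kb downstream in intron 1 of Bmp6 with folds of 6.31, 6.88, 7.60 and 7.69. At each of these 3 places the common ranks of the treatments overlapped.

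The intronic FOXL2 region of Bmp6 lay inside its H3K27ac region of all 4 libraries, chr13:38409364-38411874. The acetylation ranked 47.0 and 42.4 under vehicle and 34.7 and 21.3 under activin, lower in both activin libraries by a gap of 7.70 points. Its mean shift was −16.7 points, and 12.8% of common regions fell by as much or more. Folds were 5.19 and 4.49 under vehicle and 4.30 and 3.78 under activin. The start of Bmp6 itself was acetylated in 0 of the 4 libraries.

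Bmp7 (ENSMUSG00000008999, chromosome 2, minus strand, start at 172940092) had 1 FOXL2 region in all 4 libraries, 12.3 kb downstream in an intron, with folds of 6.57 and 7.0 under vehicle and 4.44 and 6.16 under activin. The common ranks there were 41.6, 56.9, 19.1 and 43.8, and the treatments overlapped. Near the far end of the Bmp7 gene, 68.7 kb downstream of the start, an activin-only SMAD2/3 region at chr2:172871319-172871533 was annotated to the miRNA gene Gm22773. Its folds were 6.68 and 6.37. It lay inside an H3K27ac region of all 4 libraries, at 172870203 to 172873361, with folds of 4.72 and 3.93 under vehicle and 5.18 and 5.07 under activin. Bmp7 thus had no SMAD2/3 or H3K27ac peak by name but had both within its RefSeq extent.

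Bmp2 (ENSMUSG00000027358, chromosome 2, plus strand, start at 133552159) had a single member region, a FOXL2 region at −1.84 kb in vehicle replicate 1 and activin replicate 2, with folds of 4.74 and 4.18. Bmp4 (chromosome 14, minus strand, RefSeq start at 46390669) was named for no peak at any distance. By position, a FOXL2 region of all 4 libraries lay 39.8 kb downstream of Bmp2, annotated to the small nuclear RNA gene Gm25258, with folds of 11.8, 10.7, 9.86 and 6.17. Likewise 5 FOXL2 regions annotated to other genes lay within 100 kb of Bmp4, 1 of them in all 4 libraries, at −45.3 kb. Neither Bmp2 nor Bmp4 had a SMAD2/3 or an H3K27ac region within 100 kb under any name. Presence or absence of a peak depends on the depth of a library, which is unknown here, and occupancy below the authors' threshold would not be listed.

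Gdf9 (ENSMUSG00000018238, chromosome 11, plus strand, start at 53431023) was, by the naming rule, the member at which all 3 targets met. Its first SMAD2/3 region, chr11:53431693-53432266, lay 0.956 kb downstream of the start and was annotated as promoter. Its fold was 5.09 in vehicle replicate 1, it had no peak in vehicle replicate 2, and its fold was 12.6 and 10.7 with activin. Within the activin lists it ranked 98.3 and 96.5, at places 135 and 210 from the top, and within the vehicle replicate 1 list it ranked 73.4 at place 161. This SMAD2/3 site was therefore present before activin in 1 of 2 libraries and was among the stronger sites in both activin libraries.

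The second SMAD2/3 region of Gdf9 lay 11.1 kb downstream of the start in intergenic sequence, at chr11:53441985-53442238, and was activin-only. Its folds were 6.94 and 5.04 and its percentile ranks 77.9 and 65.1. Another, 3.95 kb downstream in the intron, was called in activin replicate 1 alone with a fold of 4.53. Both regions found in both activin libraries overlapped a FOXL2 region and an H3K27ac region of both activin libraries (2 of 2, Wilson interval at 95% confidence 34.2% to 100%, counting error only). Over 4509 such SMAD2/3 regions within 100 kb of a start, 81.3% overlapped FOXL2 and 78.3% overlapped H3K27ac, so Gdf9 was like the majority. Against FOXL2 regions of both vehicle libraries the overlap was 1 of 2.

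The nearest FOXL2 summits lay 3 to 267 bp from those of SMAD2/3 at Gdf9, and no distances at other SMAD2/3 sites are given for comparison. At the site 3.95 kb downstream, called in activin replicate 1 alone, the distance was 100 bp. At the site 11.1 kb downstream the summits were 3 bp apart in activin replicate 1, with 69 bp between them in the other activin library, taking libraries with the same number. At the promoter site the distance was 216 bp for vehicle replicate 1, 267 bp for activin replicate 1 and 10 bp for the other activin library. FOXL2 at the promoter site, 53431632 to 53432621, had folds of 12.3, 11.5, 13.5 and 9.40 in the order of libraries used above, with no separation of treatments. At the site 11.1 kb downstream the FOXL2 region (53442035 to 53442274) was absent in vehicle replicate 1. Its folds were 5.40 in vehicle replicate 2 and 4.80 and 4.39 with activin.

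The strongest FOXL2 region of Gdf9 by rank stood 11.9 kb downstream, at 53442709 to 53443081, with folds of 12, 14.5, 12.2 and 14.7, and another of all 4 libraries lay 3.98 kb downstream with folds of 10.4, 8.62, 10.0 and 13.9. In both places the folds of the treatments overlapped. FOXL2 regions at 2.33 and 4.49 kb were activin-only and weak, with folds of 3.70 and 3.27 at the first and 3.61 and 3.41 at the second, and ranks of 15.7 or less within their lists. Of the 3 activin-only FOXL2 regions of the members, these were 2.

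Acetylation at Gdf9 stood near the top of all 4 H3K27ac lists. The region over the gene and its start, 53429509 to 53436988, had folds of 8.67 and 8.52 under vehicle and 11.5 and 11.0 under activin. It ranked 99.4 and 99.5 under vehicle and 99.9 and 99.9 under activin. In the full lists it stood at places 141 and 116 under vehicle and 14 and 15 under activin. Its mean shift in common rank was 0.468 points, and 47.3% of common H3K27ac regions rose by as much or more. The same region overlaps Uqcrq, a respiratory chain gene whose RefSeq extent runs from −3101 to −192 bp of the Gdf9 start used here, so the acetylation cannot be assigned to 1 of these 2 genes. In vehicle replicate 2 the peak over the Gdf9 body began past the start.

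The acetylated region 10.2 kb downstream of Gdf9, 53437973 to 53444384, contained the activin-only SMAD2/3 site. It ranked 73.4 and 73.6 under vehicle and 96.5 and 92.7 under activin, without overlap and with a gap of 19.2 points. Folds were 4.71 and 4.38 under vehicle and 7.35 and 6.30 under activin, and peaks covered 3462 and 2886 bp under vehicle and 5665 and 5256 bp under activin. The mean shift was 21.2 points, and 9.50% of common H3K27ac regions rose by as much or more. Gdf9 is the nearest annotated start to the SMAD2/3 site, which does not show which gene the site acts on.

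Bmp15 (ENSMUSG00000023279, chromosome X, minus strand, start at 6320721), the ligand that pairs with GDF9 in the oocyte, had no SMAD2/3 and no H3K27ac region. Its 1 reproducible region was an activin-only FOXL2 region 51.2 kb downstream, at chrX:6269154-6269808, with folds of 8.0 and 7.82 and percentile ranks of 48.7 and 46.0. This was the strongest of the 3 activin-only FOXL2 regions. Single-library FOXL2 peaks lay at 59.1 and −11.5 kb.

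When regions were taken by position and not by name, 10 SMAD2/3 regions lay within 100 kb of a member start, of which 3 were those of Gdf9 and 7 were annotated to neighbours. Of the 10, 5 were activin-only and 0 vehicle-only, near the 54.1% and 0.0266% of all SMAD2/3 regions within 100 kb of a start. Id1 had 5 in its window, 2 of them activin-only in Bcl2l1, an apoptosis inhibitor gene, at 63.7 and 65.0 kb, with folds of 8.17 and 5.37 at the first and 5.04 and 4.25 at the second. Both Bcl2l1 sites overlapped FOXL2 and H3K27ac regions of all 4 libraries. The other 3 Id1 regions were in activin replicate 1 alone, with folds of 3.78 to 4.12. The windows of Id2, Id4, Bmp2, Bmp4, Bmp6 and Bmp15 held 0 SMAD2/3 regions under any name. FOXL2 had 100 regions in the windows of the 10 members, 30 of them named for members, and H3K27ac had 62, 14 of them named for members. Of the FOXL2 regions 9 were activin-only and 1 vehicle-only, against 8.72% and 3.25% of all such regions. Of the H3K27ac regions 2 were activin-only and 5 vehicle-only, against 5.82% and 6.31%.

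The rest of the BMP pathway was sampled by 39 genes, 34 of them named in the lists. Of these, 6 had a SMAD2/3 region present in both activin libraries, 23 a FOXL2 region of all 4 libraries and 16 an H3K27ac region of all 4 libraries. Over the 15377 named protein-coding genes the shares were 11.2%, 55.6% and 61.2%. The counts by role include genes not named in the lists, where 6 of 7 receptor genes and 7 of 10 other ligand genes were named. By role, 2 of 7 receptor genes had such a SMAD2/3 region (Bmpr1a and Bmpr1b, which encode BMP type I receptors), as did 1 of 7 inhibitors inside the cell or at the membrane (Smad6, an inhibitory SMAD) and 1 of 3 E protein genes (Tcf3, with 2 regions). None of the 10 other BMP and GDF ligand genes had one, and none of 4 SMAD genes (Smad1, Smad5, Smad9 and the shared partner Smad4) did. The median per gene was 0 in every pathway list, as it was over all genes. E proteins are the binding partners of Id proteins, and all 3 of their genes had an H3K27ac region of all 4 libraries, as did 6 of 7 inhibitors, 3 of 7 receptors and 1 of 10 other ligands.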

How the data were processed

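ChIP-seq peaks of SMAD2/3, FLAG-FOXL2 and H3K27ac were analysed in 12 libraries of LβT2 cells. Per the submitters' processing notes, the tools named are Bowtie2, MACS2 and HOMER and the builds GRCm38 and mm10, with no versions or settings. The authors called peaks per library. The deposited lists give a score, a fold enrichment (a ratio) and −log10 p and q for each peak, and the smallest −log10 q corresponds to q thresholds of 0.05 (SMAD2/3, FOXL2) and 0.1 (H3K27ac). Gene names and distances come from HOMER's annotatePeaks, per the file headers. Starts were derived from those distances, and for Bmp4 taken from RefSeq. A Protein-A control sample was not analysed here, and the labels name no batch.

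Peaks were merged at 1 bp of overlap and compared by presence, by fold within a list and by percentile rank among regions of all 4 libraries. A region's rank is that of its strongest peak. Numbers of peaks were compared by exact permutation (two-sided). Described regions were SMAD2/3 regions of both libraries of a treatment, the H3K27ac region over or nearest to each start, the best-ranked FOXL2 region of each member, regions overlapping those SMAD2/3 regions and the 5 best-ranked activin-only and vehicle-only regions, and others are said to be singled out or are further regions of all 4 libraries. Members and lists were chosen with earlier results of these data known. The counting and ranking were tested on simulated data. Python 3.11.15, pandas 2.3.3, NumPy 2.4.6 and SciPy 1.17.1 were used. Alternatives were a distance of 50 kb, a −log10 q of at least 5, lists of equal length, 50% overlap, ranks by fold, membership by position, a replicate block and leaving out each library. The counts for extracellular BMP antagonists are not reported by role here.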

Additional observations from a re-analysis of the deposited data

How the results depend on the processing

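Over 15 results and 117 alternatives, 95 values stayed on the same side or within 1.5 times the reported count, 21 moved further and 1 changed sign. Leaving out each library in turn, the difference in H3K27ac peaks per library ran from −2.0 to 1.0, the sign changing without vehicle replicate 1, where the reported value was −0.5. Under the same omissions activin-only regions ran from 1 to 2 for SMAD2/3, 4 to 7 for FOXL2 and 0 to 2 for H3K27ac, and vehicle-only FOXL2 regions from 0 to 5. Common FOXL2 regions ranked higher ran from 0 to 5 and lower from 1 to 9, and both H3K27ac counts from 3 to 5. With lists of equal length, activin-only regions were 0 for SMAD2/3 and 1 for FOXL2. At a −log10 q of at least 5, activin-only FOXL2 regions and vehicle-only H3K27ac regions were 1 each. With vehicle FOXL2 regions the SMAD2/3 overlap was 1. Apart from the values that list length and the omissions set by construction, the cause of these moves was not tested. The counts under omissions have no share over all regions beside them.

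Replicate numbers are shared by the treatments in the labels, but with 2 pairs they may be numbers only. Deviations of same-numbered libraries correlated at −0.0128 (SMAD2/3), 0.164 (FOXL2) and −0.0389 (H3K27ac). With a replicate block the differences in peaks per library were 2.0, 6.0 and −0.5, with exact sign-flip p of 0.5, 0.5 and 1, where 0.5 is the smallest p that pairs of this number allow. The unknown depth of each library limits every statement on absence.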
